A study of Mus musculus with 3 samples.

Results

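The genes followed here code for the lubricant of the joint surface, for hyaluronan synthesis and breakdown and for the main hyaluronan receptor. They were Prg4, Creb5, Has1, Has2, Ugdh, Hyal2, Cemip and Cd44, chosen by name, 8 of the 32285 genes listed, and all 8 had counts in every library. The data were 3 droplet-based single-cell RNA libraries (10x Genomics, 3' chemistry) of synovium and infrapatellar fat pad from the knees of wild-type (wt) mice. The control library came from mice 2 months old. The other libraries came from mice with DMM surgery, which destabilises the medial meniscus and is used to model osteoarthritis after injury, done at 2 months of age, with tissue taken 1 week or 2 months later. Each library pooled 5 to 10 mice, and only live cells freed by the second digestion step, collagenase after trypsin, were sorted and loaded. With 1 library per group there was no replicate, so no test between groups was possible. All intervals are 95% intervals for counting error only and do not cover the spread between mice. Those of levels and ratios count each RNA molecule on its own and also leave out the spread between cells. Intervals without overlap are therefore no test between groups. The mice at 2 months after DMM were also older than the controls, so age and time after surgery cannot be told apart. The sources used here give neither sham surgery nor the sex of the mice.

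Lubricin, the product of Prg4, is a mucin-like glycoprotein that coats cartilage and synovium and lowers friction between them. It is made by the fibroblasts of the synovial lining and by the superficial cells of articular cartilage, and Creb5 is a transcription factor of the CREB and ATF family that is needed for Prg4 in the latter. Hyaluronan, the other large lubricant of joint fluid, is made at the plasma membrane by the synthases Has1 and Has2 from sugar nucleotides, and Ugdh makes UDP-glucuronic acid, a precursor of every chain. Hyal2, a membrane-anchored hyaluronidase, and Cemip, a hyaluronan-binding protein needed for depolymerisation in fibroblasts, break the chains down, and Cd44 is the receptor that binds and takes up hyaluronan.

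By the GENCODE vM21 annotation of GRCm38 the genes lie at chr1:150449412-150466165 (Prg4, minus strand), chr6:53287270-53700376 (Creb5, plus), chr17:17843323-17855205 (Has1, minus) and chr15:56665627-56694539 (Has2, minus). The others lie at chr5:65413221-65435949 (Ugdh, minus), chr9:107567945-107572779 (Hyal2, plus), chr7:83932857-84086502 (Cemip, minus) and chr2:102811141-102901665 (Cd44, minus). All are protein-coding. On the opposite strand Tpr overlaps Prg4, Has2os overlaps Has2 and Gm9917 overlaps Hyal2. The sources used here do not say whether the counting used strand, so reads of these pairs may not have been told apart. Tpr had 22696 to 34983 UMIs per library, against at least 946486 for Prg4. Has2os had 728 to 1200, against at least 2906 for Has2, and Gm9917 had 184 to 257, against at least 1752 for Hyal2. The Has2 counts were thus more open to such mixing than those of Prg4. How far the pairs were mixed was not tested.

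Because Creb5 belongs to the family that binds the cAMP response element (CRE), the RefSeq promoter windows (GRCm38.p6, 250 bases before to 50 after a start) were searched for it. The table was matched for 6 of the 8 genes, in 7 windows, and the others were Prg4 and Has2. The complete element, TGACGTCA, was in 2 windows, those of Has1 and Creb5, against 1.79% of all 32817 windows of 300 bases. Its first base lay 83 bases before the RefSeq start of Has1 and 45 bases before that of Creb5. All distances in this paragraph are to RefSeq starts, which for these 2 genes differ from the GENCODE positions above. The stretches below show it in capitals, 5′ to 3′ on the gene's strand, and end 23 and 33 bases before the start.
Has1 (chr17:17855212-17855371, minus strand): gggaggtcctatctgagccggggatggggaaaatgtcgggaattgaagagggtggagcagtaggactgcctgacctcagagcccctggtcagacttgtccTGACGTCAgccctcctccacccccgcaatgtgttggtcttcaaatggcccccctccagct
Creb5 (chr6:53287158-53287269, plus strand): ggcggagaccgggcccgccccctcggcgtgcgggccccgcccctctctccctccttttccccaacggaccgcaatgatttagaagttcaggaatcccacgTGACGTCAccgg
Both strands were searched. The shorter element TGACG, contained in the complete one, was in the same 2 windows (20.8% of all windows hold it). An AP-1 element, TGANTCA, lay 45 bases before a second start of Creb5 (7.81% of all windows), and TATAAA lay 29 bases before the start of Cemip (13.6%). A match of letters is a description and shows no binding.

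A barcode was used if it had 500 or more genes and no more than 10% of its UMIs (unique molecular identifiers, the counted RNA molecules) from mitochondria. There were 8099 in the control library, 12316 at 1 week and 9782 at 2 months, with median depths of 10871, 12919.5 and 13543 UMIs. Pairs of libraries shared 28 to 33 barcodes. Lining fibroblasts were barcodes with at least 3 UMIs of Clic5 and Tspan15 together, and other fibroblasts had at least 1 Pdgfra UMI, both without Ptprc and Cdh5. Endothelium had Cdh5 without Ptprc, macrophages had at least 3 C1qa UMIs, and the 31 to 75 barcodes per library that met more than 1 gate were left out. Lining fibroblasts numbered 1322 (16.3%, interval 15.5 to 17.1, of the passing barcodes) in the control library, 398 (3.23%, 2.93 to 3.56) at 1 week and 1679 (17.2%, 16.4 to 17.9) at 2 months. Other fibroblasts numbered 2846, 4419 and 3822.

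Of the listed lining markers outside the gate, those named next fitted the label. Htra4 was at 855, 861 and 1323 counts-per-million (CPM, of all UMIs of the class) in lining fibroblasts of the control, 1-week and 2-month libraries, against 33.5, 31.1 and 112 in other fibroblasts. Col22a1, Hbegf, Itga6 and Rab37 were also higher in the lining in all 3 libraries. Cd55 and Crip1 were listed too. Their levels are not given here, so the named genes do not speak for the list as a whole. The 9 listed markers, gate genes included, summed to 14192, 10959 and 13066 CPM in the lining. In other fibroblasts the sums were 4329, 4479 and 5287 CPM, and in macrophages 7053, 3751 and 6877 CPM. The gate genes themselves differed between the libraries, with Clic5 in the lining at 2594, 651 and 916 CPM, so the gate can set part of the low lining share at 1 week. All 6 pericyte and smooth muscle markers were detected in the lining of each library, with a summed level of 590 CPM in the control library, 2155 at 1 week and 466 at 2 months. The 1-week lining held 118 barcodes (29.6%) with at least 10 UMIs of Rgs5, a mural cell gene, against 12.5% in the control and 14.4% at 2 months. Their median Prg4 count was 4 at 1 week, but 2127 and 1898.5 in the control and at 2 months. Just inside the gate, at 3 gate UMIs, median Prg4 was 50, 5 and 421, and just outside, at 2 gate UMIs among other fibroblasts, it was 31, 347 and 210.5 UMIs.

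Prg4 took up a large part of the RNA of lining fibroblasts, and that part was smaller after DMM, most of all at 1 week. It was at 117479 CPM (117342 to 117617) in the control library, 70820 CPM (70633 to 71007) at 1 week and 95216 CPM (95125 to 95306) at 2 months, which is 11.7%, 7.08% and 9.52% of all lining UMIs. The 3 intervals did not overlap. At 1 week the level was 1.66-fold lower than in the control library (1.65 to 1.66), and at 2 months 1.23-fold lower (1.23 to 1.24). Counted per barcode, the lining held a median of 1710 Prg4 UMIs in the control library, 991 at 1 week and 2015 at 2 months, and the ratio of mean UMIs per barcode to the control was 0.652 and 1.19. The 2-month value was thus lower as a share of UMIs and higher per barcode, with median lining depths of 18781.5, 18558 and 25080 UMIs. Without the barcodes with 10 or more Rgs5 UMIs, an alternative chosen after seeing the data, the 1-week ratio was 0.648, and with Pdgfra required as well it was 0.691.

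Fewer lining barcodes and a lower pooled Prg4 level in them went together in the 1-week library. Lining barcodes under 10 Rgs5 UMIs had a median of 1673 Prg4 UMIs in the control (quartiles 602 to 2990). At 1 week their median was 1112 (quartiles 576.5 to 2285.75), so the ranges overlapped. Over all passing barcodes Prg4 was at 35538, 5421 and 33384 CPM. The lining held 83.1% of the Prg4 UMIs of the control, 58.3% at 1 week and 81.9% at 2 months, while other fibroblasts held 5.36%, 23.9% and 7.12%. The lining shares of Creb5, Has1 and Ugdh were also lowest at 1 week, with 52.4%, 17.4% and 53.1% for Creb5, 56.9%, 28.6% and 56.1% for Has1, and 49.5%, 14.2% and 47.9% for Ugdh. Has2 lay mostly in other fibroblasts (77.7%, 70.1% and 74.4%), and endothelium held 39.7%, 39.8% and 42.4% of the Hyal2 UMIs. The class with most Cemip UMIs differed between the libraries. The lining held 74.9% of them in the control library, 3.71% at 1 week and 39.2% at 2 months, and other fibroblasts 8.19%, 68.5% and 43.7%.

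**Figure D1:**
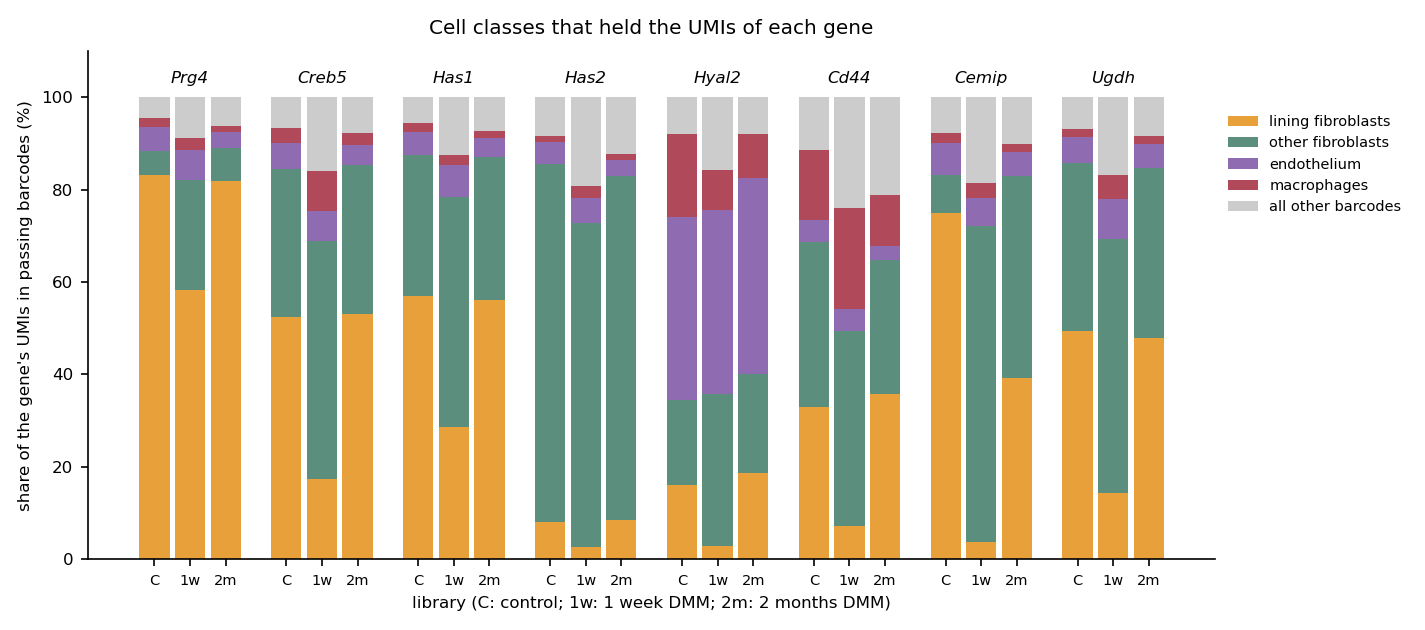
Share of each gene's UMIs (y axis, percent of its UMIs in passing barcodes) held by each cell class, in the control (C), 1-week (1w) and 2-month (2m) libraries. The lining bar of Prg4 shrinks from 83.1% to 58.3% at 1 week, and that of Cemip from 74.9% to 3.71%.

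Prg4 UMIs were also present in most barcodes of cells that are not known to make lubricin. The median Prg4 count in the control was 16 UMIs in endothelium, 16 in macrophages and 14 in neutrophils (at least 50 S100a8 and S100a9 UMIs), against 20 in other fibroblasts. At 1 week it was 1, 1 and 1 against 3, and at 2 months 7, 8 and 5 against 10. Barcodes below 500 genes, with median depths of 582 to 647 UMIs, held a median of 11 Prg4 UMIs in the control library, 0 at 1 week and 3 at 2 months. Outside the fibroblasts the medians of these classes thus lay close together within a library and apart between libraries.

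After every barcode was thinned to 5000 UMIs, 99.8% of other fibroblasts in the control had a Prg4 UMI, against 99.4% of endothelium and 99.9% of macrophages. The shares were 62.2%, 50.7% and 52.4% at 1 week and 95.4%, 91.1% and 95.7% at 2 months. Without thinning they were 99.96%, 99.8% and 99.7% in the control library, 87.5%, 77.2% and 75% at 1 week and 98.5%, 99.0% and 99.1% at 2 months. Median depths were 12373, 8404 and 9496 UMIs in the control library, 16327, 11486 and 10080 at 1 week and 13372, 13281 and 11729 at 2 months. In the control and at 2 months the share of other fibroblasts with a Prg4 UMI was therefore near that of classes that should lack it, and is not read as expression.

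**Figure D2:**
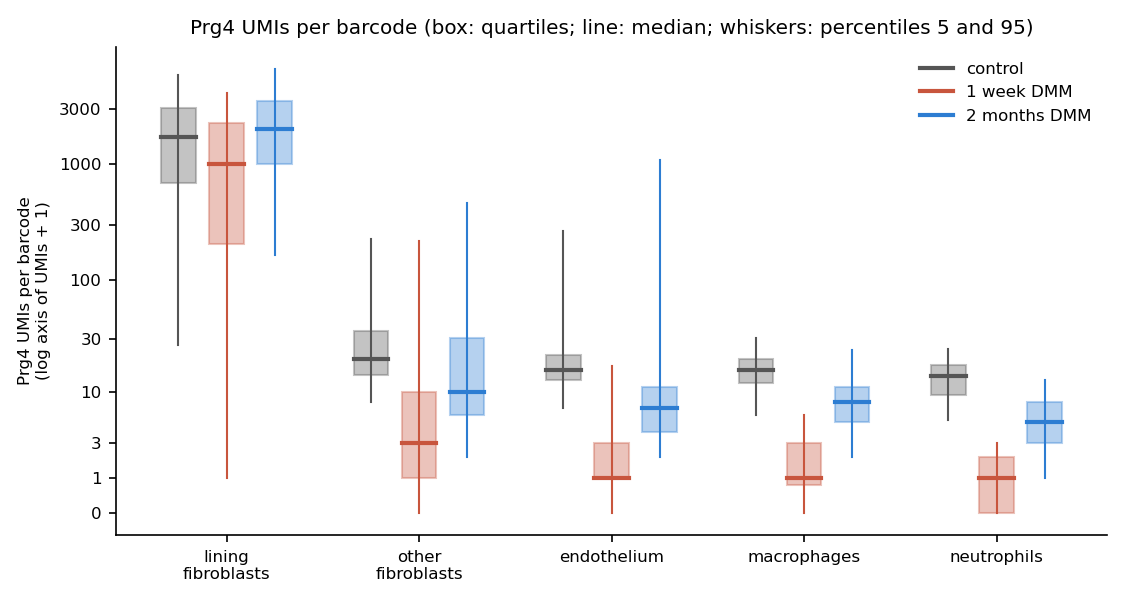
Prg4 UMIs per barcode (y axis, log axis of UMIs + 1) in 5 cell classes of each library, where the box spans the quartiles, the thick line is the median and the whiskers reach percentiles 5 and 95. Endothelium, macrophages and neutrophils share a low floor that is highest in the control (medians 14 to 16) and lowest at 1 week (median 1).

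The pooled Prg4 level outside the lining rested on a few barcodes. In endothelium it was 13260, 2507 and 10320 CPM, in the control and at 2 months above the 5074, 2872 and 6538 CPM of other fibroblasts. Endothelial barcodes with at least 100 Prg4 UMIs numbered 86 of 1253, 58 of 1773 and 91 of 1150. Of these, 73.3%, 91.4% and 90.1% had a Pdgfra UMI, and the doublet caller Scrublet marked 24.4%, 25.9% and 37.4%, against 3.86%, 4.12% and 4.70% of all passing barcodes. Endothelial barcodes under 100 Prg4 UMIs were at 1869, 201 and 565 CPM. Among other fibroblasts the mean was 63.7, 51.1 and 96.7 UMIs, over medians of 20, 3 and 10, and percentile 95 was 224, 217 and 466 UMIs. The level of other fibroblasts was 1.77-fold lower at 1 week than in the control library (1.76 to 1.78) and 1.29-fold higher at 2 months (1.28 to 1.30). That 2-month ratio lay below 1 for barcodes without any Clic5 or Tspan15 UMI (0.951, chosen after seeing the data) and for the mean of per-cell CPM (0.996). At 1 week the direction differed with the gate UMIs. Barcodes with 2 and 1 gate UMIs, 42 and 236 in number, were at 27978 and 13372 CPM, against 12962 and 6526 in the control. Those without any were at 1839 against 3461 CPM and made up 93.7% of the class against 65.8%. With the neutrophil mean subtracted, chosen after seeing the data, the 1-week ratio was 0.706. How far class make-up or free RNA set these ratios was not tested. Subtracting the endothelial mean gave no Prg4 value for other fibroblasts, because the endothelial mean was the higher in the control and at 2 months.

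Free RNA from 1 source keeps its genes in 1 ratio, so Prg4 was set against Htra4 and Has1 within each class. In the control there were 137 Prg4 UMIs per Htra4 UMI in the lining (136 to 139), 151 in other fibroblasts (143 to 160), 157 in endothelium (148 to 167) and 210 in macrophages (188 to 234). At 1 week the values were 82.2, 92.4, 98.3 and 102, and at 2 months 71.9, 58.6, 61.5 and 80.5. Of the endothelial Htra4 UMIs, 934 of 1087, 550 of 633 and 2824 of 3018 lay in the barcodes with at least 100 Prg4 UMIs. A stricter endothelium, with at least 3 Cdh5 UMIs and no Pdgfra, Clic5 or Tspan15, had 125 (78.1 to 215), 69.4 (45.6 to 111) and 42.5 (31.3 to 59.2), from 17, 22 and 42 Htra4 UMIs. The lining had 99.3, 131 and 148 Prg4 UMIs per Has1 UMI in the control library, at 1 week and at 2 months, endothelium 67.5, 62.0 and 87.8, macrophages 76.6, 70.2 and 80.2, and other fibroblasts 11.95, 30.7 and 23.2. Other fibroblasts had the lowest value of these 4 classes, but strict endothelium was at 96.8 (63.8 to 155), 25.9 (19.9 to 34.1) and 48.3 (34.9 to 68.8), which at 1 week overlapped other fibroblasts. Neutrophils at 2 months had 70.5 Prg4 UMIs per Htra4 UMI (58.7 to 85.4), and unclassed barcodes with at least 10 Rgs5 UMIs had 14.2 at 1 week (10.6 to 19.4) and 23.7 at 2 months (17.7 to 32.4), below each of the 4 classes. Their Prg4 UMIs per Has1 UMI were 7.19 and 22.2. How much of the Prg4 signal of each class was free RNA was not tested further.

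**Figure D3:**
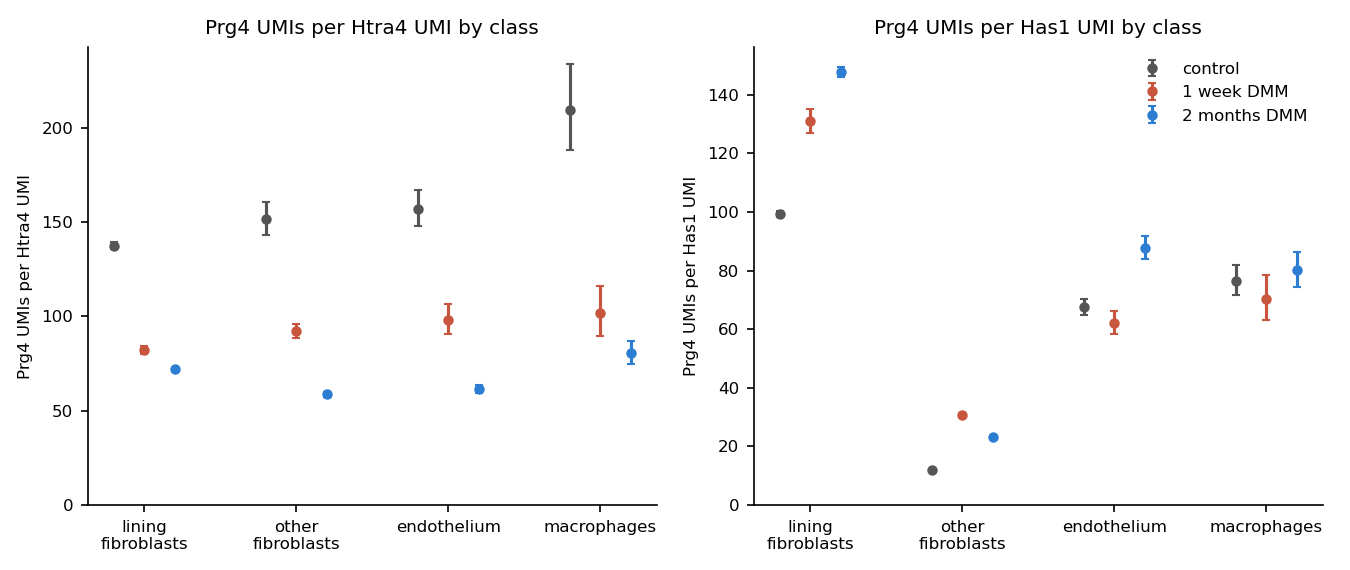
Prg4 UMIs per Htra4 UMI (left) and per Has1 UMI (right) in the summed UMIs of each class (x axis) and library (colour), with 95% counting intervals. On the left the values are 137 to 210 in the control and 58.6 to 80.5 at 2 months, and on the right other fibroblasts are the lowest of the 4 plotted classes, at 11.95 to 30.7.

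Creb5 in the lining differed little between the libraries. It was at 543 CPM in the control library (533 to 552), 528 CPM at 1 week (512 to 545) and 593 CPM at 2 months (586 to 600). The control and 1-week intervals overlapped, with a ratio of 0.974 (0.94 to 1.01), and 5 of 11 alternatives put the 1-week ratio above 1 (up to 1.12). The 2-month level was 1.09-fold higher than in the control library (1.07 to 1.12). In other fibroblasts Creb5 was at 223, 155 and 285 CPM, 1.44-fold lower at 1 week (1.40 to 1.48) and 1.28-fold higher at 2 months (1.24 to 1.31). The lining was 2.44, 3.41 and 2.08 times as high as other fibroblasts. Endothelium was at 107, 61.9 and 120 CPM and macrophages at 80.3, 87.9 and 115. Neutrophils were at 12.8 to 21.9 CPM.

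Has1 was lower after DMM in the summed UMIs of all 4 classes. In the lining it was at 1183 CPM (1169 to 1197) in the control library, 541 (525 to 557) at 1 week and 645 (637 to 652) at 2 months, with no overlap. The 1-week level was 2.19-fold lower than in the control library (2.12 to 2.26) and the 2-month level 1.84-fold lower (1.81 to 1.87). The 1-week ratio of 0.457 was past 2-fold in 9 of 13 alternatives. It was 0.543 with Pdgfra required, 0.542 with at least 5 gate UMIs, 0.526 without the Rgs5 barcodes and 0.510 after thinning. In other fibroblasts Has1 was at 424 CPM (418 to 431), 93.5 (91.4 to 95.7) and 282 (278 to 286), 4.54-fold lower at 1 week (4.41 to 4.67) and 1.51-fold lower at 2 months (1.47 to 1.54). Endothelium was at 197, 40.4 and 118 CPM, 4.86-fold lower at 1 week (4.52 to 5.23). Macrophages were at 89.1, 14.8 and 63.3 CPM, 6.01-fold lower at 1 week (5.30 to 6.83). Of the endothelial Has1 UMIs, 1473 of 2530, 525 of 1004 and 1483 of 2114 lay in barcodes with at least 100 Prg4 UMIs. Endothelial barcodes under 100 Prg4 UMIs were at 95.1, 20.6 and 41.3 CPM. Strict endothelium was at 17.7, 8.31 and 10.998 CPM, from 22, 59 and 37 UMIs. Neutrophils were at 22.4, 6.94 and 18.7 CPM, from 7, 13 and 107 UMIs. Whether doublets or free RNA gave these values was not tested. The share of other fibroblasts with a Has1 UMI at 5000 UMIs was 55.1%, 22.5% and 45.4%, against 22.4%, 7.40% and 14.8% in endothelium and 14.6%, 3.76% and 10.8% in macrophages. The shares without thinning were 68.3%, 40.4% and 63.3% in other fibroblasts, 30.9%, 13.2% and 25.5% in endothelium and 21.6%, 7.48% and 19.2% in macrophages.

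Ugdh showed the order of Has1. The lining was at 839 CPM (827 to 850) in the control library, 388 (374 to 402) at 1 week and 424 (418 to 430) at 2 months. It was 2.16-fold lower at 1 week (2.08 to 2.25) and 1.98-fold lower at 2 months (1.94 to 2.02), and the 1-week ratio of 0.462 was 0.502, 0.565 and 0.555 with at least 5 gate UMIs, with Pdgfra required and without the Rgs5 barcodes. In other fibroblasts it was at 411, 149 and 257 CPM, 2.76-fold lower at 1 week (2.70 to 2.83) and 1.60-fold lower at 2 months (1.56 to 1.64). Endothelium was at 178, 72.7 and 111 CPM and macrophages at 71.9, 48.7 and 63.7.

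Has2, the synthase that also serves in development and wound repair, was mainly a gene of the fibroblasts outside the lining. Other fibroblasts were at 63.1 CPM (60.6 to 65.8) in the control library, 36.5 (35.2 to 37.8) at 1 week and 42.8 (41.1 to 44.5) at 2 months. They were 1.73-fold lower at 1 week (1.64 to 1.83) and 1.48-fold lower at 2 months (1.39 to 1.56). The lining was at 9.65 CPM (8.45 to 11), 14.3 (11.7 to 17.2) and 6.21 (5.50 to 6.99), which is 0.153, 0.391 and 0.145 times the level of other fibroblasts. In the lining the 1-week level was 1.48-fold higher than in the control library (1.17 to 1.86) and rested on 111 UMIs. The 1-week lining ratio ranged from 1.07 to 2.02 over the alternatives. The overlapping Has2os had 124 UMIs in the control lining, where Has2 had 231. In the 1-week lining Has2os had 27 against the 111 of Has2, and in the 2-month lining 119 against 277. Whether Has2os reads entered the Has2 counts was not tested.

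**Figure D4:**
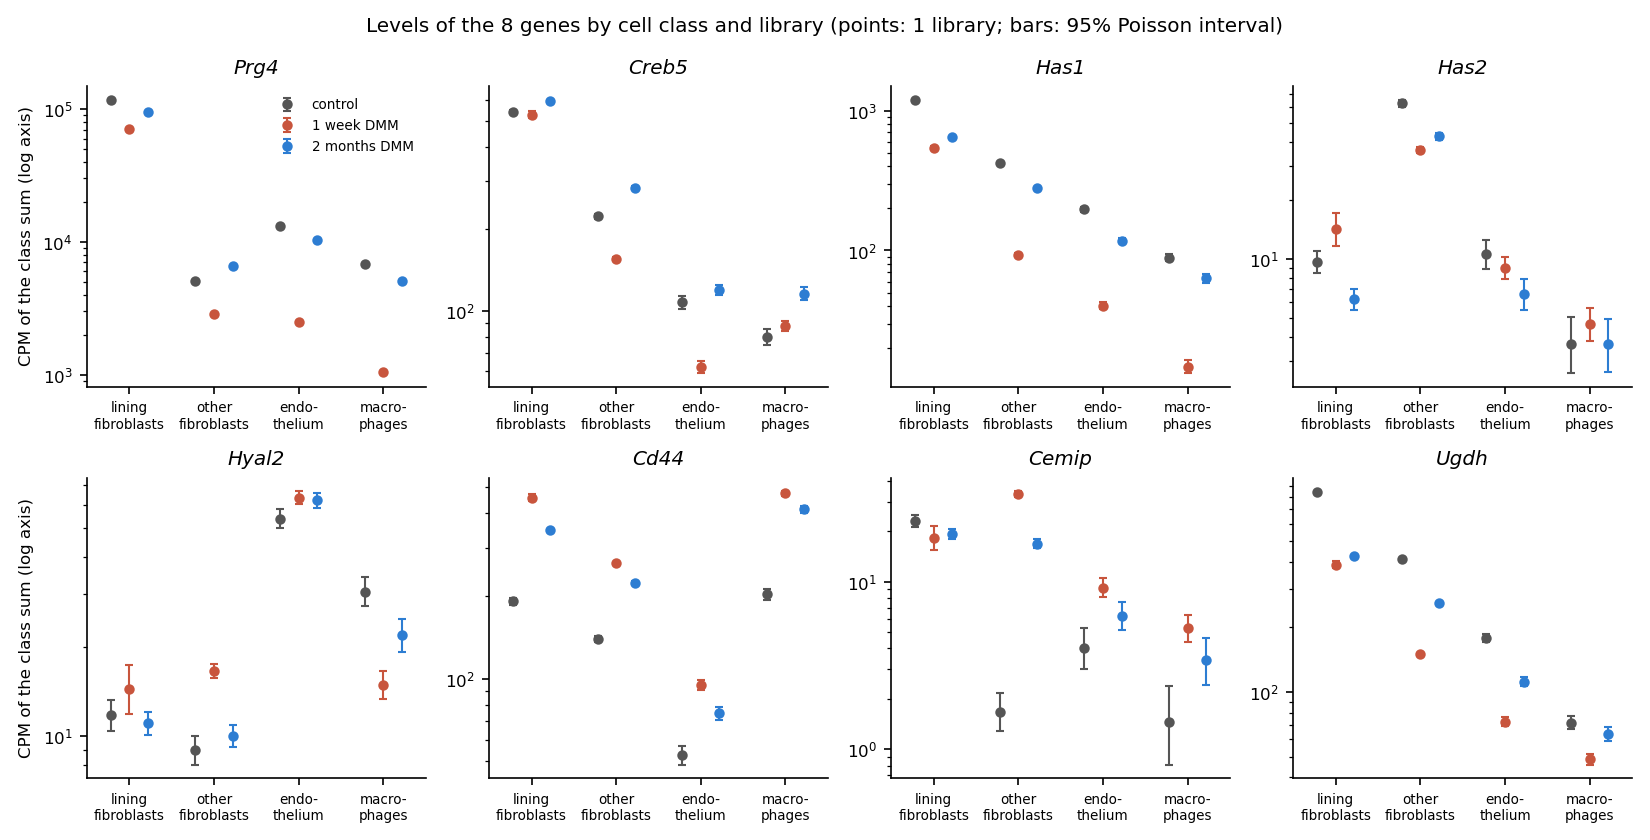
Level of each gene (y axis, CPM of the class sum, log axis) in 4 cell classes of the 3 libraries; each point is 1 library and the bars are 95% Poisson intervals. Prg4, Creb5, Has1 and Ugdh are highest in the lining, Has2 in other fibroblasts of every library and Hyal2 in endothelium of every library.

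Cemip showed the largest difference among the 8 genes. Other fibroblasts were at 1.68 CPM (1.28 to 2.16) in the control library, from 60 UMIs, at 33.4 CPM (32.1 to 34.7) at 1 week and at 16.9 CPM (15.8 to 18.0) at 2 months. The 1-week level was 19.9-fold higher than in the control library (15.4 to 26.1) and the 2-month level 10.1-fold higher (7.75 to 13.3). A Cemip UMI was found in 1.62% of these barcodes in the control library, 30.2% at 1 week and 10.8% at 2 months, and in 0.613%, 12.5% and 4.70% after thinning to 5000 UMIs. In endothelium the thinned shares were 1.09%, 3.31% and 1.69% (2.55%, 7.5% and 4.43% without thinning). Its level was 4.04, 9.22 and 6.29 CPM, 2.28-fold higher at 1 week and 1.56-fold at 2 months. Macrophages were at 1.45, 5.27 and 3.39 CPM, from 15, 121 and 39 UMIs, 3.64-fold and 2.34-fold higher. Without Scrublet calls the macrophage ratios were 8.84 and 4.65. Whether free RNA or doublets gave these values was not tested. The lining did not share the difference. It was at 22.9 CPM (21.1 to 24.9), 18.2 (15.4 to 21.5) and 19.2 (17.9 to 20.5), with ratios to the control of 0.795 (0.656 to 0.958) and 0.835 (0.750 to 0.932). Over the alternatives the 1-week ratio ranged from 0.615 (thinned before gating) to 0.995 (Pdgfra required), and after thinning the 2-month ratio was 0.470. The lining's control level was 13.7 times that of other fibroblasts (10.5 to 18.2) and its 1-week level 0.547 times (0.458 to 0.647).

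Chondrocyte genes moved with the 1-week library as well. In other fibroblasts all 7 chondrocyte markers were detected in each library. Col2a1 was at 0.168, 94.3 and 13.6 CPM, Acan at 0.0280, 295 and 30.6 CPM and Col9a1 at 0.224, 15.8 and 1.47 CPM in the control library, at 1 week and at 2 months, whereas the summed level of the 7, mostly Comp, was 2771, 1852 and 2167 CPM. Among other fibroblasts without a Col2a1 UMI, an alternative chosen after seeing the data, Cemip was 19.2-fold and 10.1-fold higher than in the control. Over all alternatives the 1-week ratio ranged from 14.1 to 29.7 and the 2-month ratio from 4.64 to 14.4, lowest after thinning.

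Hyal2 was highest in endothelium, at 54.0 CPM (50.04 to 58.2) in the control library, 63.5 (60.4 to 66.7) at 1 week and 62.2 (58.6 to 66.0) at 2 months. The lining was at 11.7, 14.4 and 11.1 CPM with intervals that overlapped (10.4 to 13.2, 11.9 to 17.3 and 10.1 to 12.1). Other fibroblasts were at 8.98 CPM (8.02 to 10.0), 16.6 (15.7 to 17.5) and 10.0 (9.22 to 10.9), 1.85-fold higher at 1 week (1.64 to 2.10). Macrophages were at 30.6, 14.9 and 21.8 CPM, 2.06-fold lower at 1 week (1.76 to 2.41). That macrophage ratio was 0.485, or 0.510 when scaled by the median gene ratio. Neutrophils had 0, 3 and 5 Hyal2 UMIs in all, and the count of 0 in the control allows up to 9.60 CPM (3 UMIs).

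Cd44 was higher after DMM in the lining, other fibroblasts and macrophages, and in endothelium at 1 week. The lining was at 191 CPM (186 to 197) in the control library, 457 (442 to 472) at 1 week and 347 (341 to 352) at 2 months, without overlap. It was 2.39-fold higher at 1 week (2.28 to 2.49) and 1.81-fold higher at 2 months (1.75 to 1.87). With each cell weighing the same the 1-week ratio was 1.94. Other fibroblasts were at 140, 263 and 223 CPM, 1.88-fold (1.83 to 1.94) and 1.60-fold higher (1.55 to 1.65). Macrophages were at 203, 473 and 413 CPM, 2.33-fold (2.23 to 2.45) and 2.04-fold higher (1.94 to 2.15), and endothelium at 52.5, 94.96 and 74.9 CPM. The 2-month endothelial ratio was 1.43 (1.30 to 1.57), and 1.00 after thinning to 5000 UMIs before gating. Of the 1346 endothelial Cd44 UMIs at 2 months, 784 lay in barcodes with at least 100 Prg4 UMIs. Endothelial barcodes under 100 Prg4 UMIs were at 41.9 CPM in the control library, 74.0 at 1 week and 36.7 at 2 months. Strict endothelium was at 16.9, 25.6 and 8.92 CPM. Neutrophils, which are known for high Cd44, were at 506, 653 and 656 CPM.

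Genes with at least 50 UMIs in both sums together served as background, 11854 in the lining at 1 week. Against the control, 8.53% of them were at least 2-fold higher and 5.92% at least 2-fold lower. Of the 8, 1 was higher (Cd44) and 2 were lower (Has1 and Ugdh). At 2 months none of the 8 was past 2-fold in the lining, where 4.86% of all genes were higher and 4.37% lower. In other fibroblasts at 1 week 1 gene was higher (Cemip, background 11.9%) and 2 were lower (Has1 and Ugdh, background 10.1%). At 2 months 1 was higher there (Cemip, background 6.09%) and 0 were lower (background 2.88%). The median log2 ratio of the 8 was -0.18 at 1 week and -0.28 at 2 months in the lining, and -0.66 and 0.26 in other fibroblasts, against 0.06, -0.01, 0.04 and 0.06 over all genes. At 1.5-fold, 1 gene was higher (background 16.7%) and 3 were lower (12.7%) in the lining at 1 week, and 1 (11.1%) and 3 (10.0%) at 2 months. In other fibroblasts the counts were 3 (21.0%) and 4 (17.9%) at 1 week and 2 (13.4%) and 2 (7.18%) at 2 months. The operated libraries were compared with the same control, so their ratios are not independent.

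**Figure D5:**
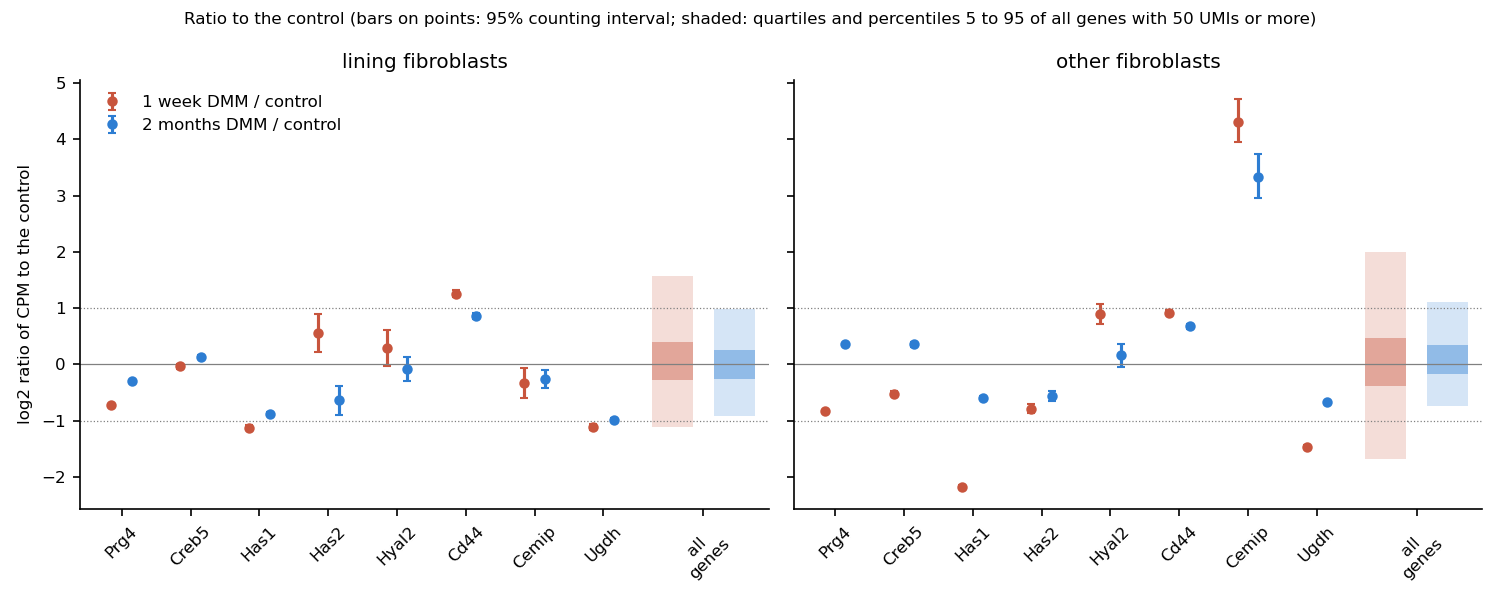
Log2 ratio of CPM to the control (y axis) for each gene in lining fibroblasts (left) and other fibroblasts (right) at 1 week and 2 months, with 95% counting intervals; dotted lines mark 2-fold, and the shaded bars give the quartiles (dark) and percentiles 5 to 95 (light) of all genes with at least 50 UMIs. Cemip in other fibroblasts (19.9-fold and 10.1-fold higher) lies outside the light bars, Has1 is lowest there at 1 week (4.54-fold lower), and Cd44 is highest in the lining.

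Between classes of the same library the 8 genes stood farther apart. In the control 5 of 8 (Prg4, Creb5, Has1, Cemip and Ugdh) were at least 2-fold higher in the lining than in other fibroblasts, where 6.29% of all genes were, and 1 (Has2) was at least 2-fold lower, with a background of 12.1%. At 1 week 4 were higher (Prg4, Creb5, Has1 and Ugdh, background 6.42%) and 1 was lower (Has2, background 10.2%). At 2 months 3 were higher (Prg4, Creb5 and Has1, background 5.32%) and 1 was lower (Has2, background 13.7%). The Prg4 level in the lining was 23.2, 24.7 and 14.6 times that of other fibroblasts.

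Other genes of hyaluronan synthesis were described from a list of 13, of which 12 had at least 50 UMIs. In the lining at 1 week 3 were at least 2-fold lower (5.92% of all genes were) and 0 higher (8.53%). Besides Has1 and Ugdh the lower gene was Uap1, which makes the other precursor UDP-N-acetylglucosamine, at 382 CPM against 871 in the control library (2.28-fold lower, 2.19 to 2.37). Uap1 was also the 1 lower gene of this list in the lining at 2 months (background 4.37%), at 349 CPM (2.5-fold lower, 2.45 to 2.55). In other fibroblasts at 1 week 4 were lower (background 10.1%) and 1 was higher (11.9%). Gfpt2, which feeds the hexosamine pathway, was at 43.1 against 173 CPM (4.03-fold lower) and Uap1 at 111 against 391 CPM (3.51-fold lower). Gfpt1, which catalyses the same step as Gfpt2, was at 88.8 against 42.0 CPM (2.12-fold higher, 2.00 to 2.24). At 2 months none of the 12 was past 2-fold in other fibroblasts, and Uap1 was 1.88-fold lower. The list's median log2 ratio was -0.15 and -0.38 in the lining and -0.61 and 0.06 in other fibroblasts.

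Of the breakdown list, 7 genes in the lining and 8 in other fibroblasts were counted often enough, out of 9 listed. In the lining 0 were past 2-fold at either time, which with 7 genes is close to the background (8.53% higher and 5.92% lower at 1 week, 4.86% and 4.37% at 2 months). In other fibroblasts Cemip and Cemip2 were higher at both times (background 11.9% and 6.09%) and 0 were lower. Cemip2, a membrane protein related to Cemip, was at 8.22 CPM in the control library, 42.4 at 1 week (5.16-fold higher, 4.58 to 5.83) and 19.5 at 2 months (2.37-fold higher, 2.08 to 2.70). Of 7 receptors counted often enough, 2 were higher (Cd44 and Hmmr) and 1 was lower (Lyve1) in the lining at 1 week (background 8.53% and 5.92%), and Hmmr was higher and Lyve1 lower in other fibroblasts (11.9% and 10.1%). Hmmr, a gene also known for its part in cell division, was 12.1-fold higher in the lining at 1 week (9.52 to 15.6) and 10.6-fold higher in other fibroblasts (8.70 to 13.04). Lyve1 was 3.63-fold and 7.03-fold lower, from 12 and 62 UMIs at 1 week.

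Of 17 hyaluronan-binding matrix genes, 5 were counted often enough in the lining at 1 week, where 3 were higher (background 8.53%) and 0 lower (5.92%). Tnfaip6, which links proteins to hyaluronan, was at 565 against 168 CPM in the control library (3.36-fold higher, 3.22 to 3.51), and Vcan, a large hyaluronan-binding proteoglycan, at 144 against 44.6 CPM (3.22-fold higher). The third, Acan, had 240 UMIs at 1 week and 0 in the control library, where a count of 0 allows up to 3. In other fibroblasts at 1 week 6 of 10 were higher (background 11.9%) and 2 lower (10.1%). At 2 months 1 of 7 was higher and 1 lower in the lining (4.86% and 4.37%), and 2 of 7 were higher and 1 lower in other fibroblasts (6.09% and 2.88%). The link protein gene Hapln1 had 1.03 CPM in the control, 24.0 CPM at 1 week (23.2-fold higher, 16.7 to 33.0) and 9.04 CPM at 2 months (8.74-fold higher). Itih5, a heavy chain of the inter-alpha-trypsin inhibitor family, was at 95.01 against 404 CPM at 1 week (4.26-fold lower). Acan is listed here and among the chondrocyte markers. At 2 months Ptx3 was 3.5-fold lower in the lining and 2.34-fold lower in other fibroblasts, and Tnfaip6 in other fibroblasts was 1.65-fold lower.

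Of 17 genes listed with lubricin (regulators, proteases and genes of lubricin-making cells), 15 were counted often enough in the lining, where 1 was higher (background 8.53%) and 2 were lower (5.92%) at 1 week, near the background. Ecrg4, the gene of a secreted peptide precursor, was at 62.4 against 16.3 CPM (3.83-fold higher, 3.35 to 4.39) and Vit, which codes for a matrix protein, at 9.51 against 47.6 CPM (5.00-fold lower, 3.95 to 6.42). Clu, clusterin, was 2.94-fold lower. In other fibroblasts at 1 week Ecrg4 was 7.37-fold higher (7.15 to 7.60) and Vit 31.2-fold lower (27.7 to 35.2). At 2 months none of the 15 was past 2-fold in the lining, where Ctsb, cathepsin B, was 1.97-fold higher. In other fibroblasts at 2 months 4 of 17 were higher (background 6.09%). They were Htra4, at 112 against 33.5 CPM (3.33-fold higher, 3.13 to 3.54), Ecrg4 (2.19-fold), Ctsg (2.16-fold, 1.11 to 4.52) and Tgfbr2, a receptor for TGF-beta (2.14-fold).

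Over the 12 sums of 4 classes in 3 libraries, the levels most like those of Prg4 among 8277 genes were Sema3a (Pearson r = 0.987 on log2 CPM + 1), Sema5a (0.986), Dlx4os (0.984), Aldh1a3 (0.979) and Eef1a2 (0.977). Sema3a, a secreted guidance factor, was at 197, 137 and 160 CPM in the lining and 9.20, 4.39 and 13.6 CPM in other fibroblasts. Aldh1a3, a retinaldehyde dehydrogenase, was at 350, 75.7 and 164 CPM in the lining. The levels most like those of Has1 were Gfpt2 (0.994), C1qtnf7 (0.982), Tmem100 (0.982), Rnd2 (0.976) and Errfi1 (0.975). Gfpt2 was at 444, 246 and 316 CPM in the lining. Sums of a library share its depth and its free RNA, so these coefficients describe the 12 sums and carry no p.

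Within the lining, Creb5 had no single order with Prg4. Lining barcodes of at least 5000 UMIs were thinned to that number and split into 4 equal groups by Prg4. From the lowest to the highest group, Creb5 was at 2.77, 3.44, 2.85 and 2.49 UMIs per barcode in the control library, and at 3.23, 3.36, 3.09 and 2.52 at 2 months. In the control it was higher in the second group than in the lowest, without overlap, and in both libraries lowest in the highest group. At 1 week it was at 1.05 (0.858 to 1.27), 2.88, 3.41 and 3.10, and the lowest group there had 29.9 Rgs5 UMIs per barcode. With Pdgfra required the 1-week values were 2.95, 2.80, 3.39 and 3.03, with overlapping intervals. Htra4 was higher in the upper groups, from 1.73 in the lowest to 4.98 in the highest in the control and from 4.65 to 7.69 at 2 months. Has2 was lower in the upper groups, from 0.126 (0.0898 to 0.173) to 0.00325 (8.22e-05 to 0.0181) in the control. Cd44 was also lower, from 2.06 to 1.42 at 2 months and from 3.77 to 1.30 at 1 week with Pdgfra required. Within 5000 UMIs a barcode with more Prg4 has fewer UMIs left for other genes, and median Prg4 ran from 177 in the lowest to 935.5 in the highest control group.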

How the data were processed

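Per the file headers, the deposited matrices hold UMI counts per gene and barcode, whole and not normalised, written by Cell Ranger 5.0.0 (control, 1 week) and 5.0.1 (2 months). The submitters' processing notes name Cell Ranger 6.0.1 and mm10. Per the labels' protocols, tissue was digested in 0.25% trypsin for 30 min and in collagenase at 300 U/mL for 30 min. The libraries held 96782789, 179561680 and 159333121 UMIs in 9003, 13986 and 10799 barcodes.

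UMIs were summed over the barcodes of a class in a library and given as CPM with exact Poisson intervals. Ratios have exact conditional binomial intervals and shares Clopper-Pearson intervals, at 95%. Genes needed at least 50 UMIs in both sums together, sums under 3 UMIs were raised to 3 for calls and medians, and 2-fold or more counted as a call. Doublets were left out only where gates overlapped. Scrublet (scanpy 1.11.5) served as an alternative. Ratio intervals were tested on simulated Poisson counts, the model that they assume. Those counts hold no spread between cells or mice, so the test does not show how the intervals fare on these data. Named list genes were the 2 highest and 2 lowest ratios of each list, and others were chosen after their values were seen. The 8 genes, gates and lists were chosen with earlier results of these data known. Python 3.11.15, numpy 2.4.6, scipy 1.17.1, pandas 2.3.3 and matplotlib 3.10.9 were used. Thinning to 3000 UMIs, other gates, filters, scalings and subtractions were tried as alternatives.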

Additional observations from a re-analysis of the deposited data

Results flagged for a closer look

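In 4 cases the ratio to the control lay on opposite sides of 1 in lining and in other fibroblasts, both with intervals that left out 1. With 1 library per group these differences were not tested, and their intervals cover counting error only. Has2 at 1 week was 1.48 times the control in the lining and 0.578 times in other fibroblasts, so the lining ratio was 2.56 times the other (2.03 to 3.23). Reads of Has2 and the overlapping Has2os may not have been told apart in these values. Cemip at 1 week was 0.795 times the control in the lining and 19.9 times in other fibroblasts, a ratio of these ratios of 0.0400 (0.0292 to 0.0548). Its lining value was 0.995 with Pdgfra required and 0.615 when thinned before gating, so the lining side lay close to 1 in the former. Cemip at 2 months was 0.835 and 10.1 times the control, a ratio of ratios of 0.0830 (0.0626 to 0.110). Prg4 at 2 months was 0.810 times the control in the lining and 1.29 times in other fibroblasts, a ratio of ratios of 0.629 (0.625 to 0.633). The other-fibroblast value of Prg4 lay below 1 for barcodes without Clic5 and Tspan15 UMIs (0.951) and for the mean of per-cell CPM (0.996), so the opposite sides did not hold there.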

How the results depend on the processing

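Prg4 in the lining stayed below the control in all 12 alternatives, in none past 2-fold. At 1 week the ratio, 0.603 as reported, was 0.582 under a filter of 1000 genes and 5% mitochondrial UMIs, 0.60 without Scrublet calls, 0.574 and 0.691 with lining gates of 2 and 5 UMIs, 0.691 with Pdgfra, 0.744 thinned before gating, 0.641 as mean of per-cell CPM, 0.566 scaled by the median gene ratio and 0.628 with the endothelial mean subtracted. With choices made after seeing the data it was 0.648 without Rgs5 barcodes, 0.573 gated on Clic5 and Tspan15 alone and 0.606 with the neutrophil mean subtracted. At 2 months, 0.810 as reported, the values in the same order were 0.806, 0.806, 0.868, 0.795, 0.823, 0.809, 0.832, 0.823 and 0.811, then 0.806, 0.798 and 0.812.

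The count of genes at least 2-fold higher in the lining at 1 week, 1 as reported, was 2 when thinned (Has2 joined) and 0 as mean of per-cell CPM. The count lower, 2 as reported, was 0 with a gate of 5, with Pdgfra and without Rgs5 barcodes and 1 when thinned. At 2 months the count lower in the lining, 0 as reported, was 1 with gates of 2 and 5 and as mean of per-cell CPM, and 3 when thinned. In other fibroblasts at 1 week the count higher, 1 as reported, was 2 when thinned, and the count lower, 2 as reported, was 3 as mean of per-cell CPM (Prg4 at 0.484). With a fold of 1.5, 1 was higher and 3 lower in the lining at 2 months, 3 were higher and 4 lower in other fibroblasts at 1 week, and 2 and 2 at 2 months.

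Of 550 ratios under alternatives 18 lay on the other side of 1, none of them for a ratio past 2-fold as reported. Of 7 such ratios in fibroblasts, 4 stayed past 2-fold throughout. With Scrublet calls removed, the macrophage ratios at 1 week were 0.296 for Prg4 and 0.297 for Has1 (0.152 and 0.166 as reported). Hyal2 in the lining at 1 week was 0.594 when thinned (1.22 as reported). No paired analysis was possible because each group was 1 library. The depth limits Has2, Hyal2 and Cemip, which had under 1 UMI per barcode in both fibroblast classes.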
